A study of Mus musculus with 26 samples.

Results

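The 32 genes described here encode chaperones of the endoplasmic reticulum (ER) and the sensors and effectors of the unfolded protein response. They were listed by name, with earlier results of these data known, and all 32 were found among the 50686 genes in the deposited table and among the 17286 genes that passed the filter on low counts and were tested. The counts came from RNA sequencing of brown adipose tissue (BAT), labelled supraclavicular, of male C57BL/6J mice aged 12 to 16 weeks. The study asked how loss of Afadin, a scaffold protein of cell junctions encoded by *Afdn* (*Mllt4* in the study), changes the response of BAT to cold.

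FAKO mice carried *Mllt4* flox/flox alleles and Adiponectin-Cre, which acts in brown and white adipocytes, so the other cells of the tissue kept the gene. Their littermates served as controls. All mice spent 2 weeks at thermoneutrality (30 °C in the labels, 1 degree lower in the study's methods), and the cold-exposed mice then spent 6 h at 5 °C. Control mice numbered 7 at 30 °C and 5 at 5 °C, and those labelled FAKO numbered 7 at each temperature, each a separate mouse with 1 library.

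The ER folds secreted and membrane proteins. When unfolded proteins collect in it, the sensors IRE1 (*Ern1*), PERK (*Eif2ak3*) and ATF6 signal to the nucleus and the ribosome. IRE1 splices the mRNA of *Xbp1* into a form that encodes an active transcription factor, PERK slows translation and favours that of ATF4, and ATF6 is cut in the Golgi to release a transcription factor. The targets include chaperones, disulfide isomerases and the machinery of ER-associated degradation (ERAD), which moves misfolded proteins to the proteasome. In brown adipocytes the branch of IRE1 and XBP1 has been linked to the transcription of *Ucp1*, the uncoupling protein of thermogenesis.

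Some of the 32 genes share a DNA element. The ER stress response element (ERSE, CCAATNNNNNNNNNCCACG) is the known binding site of NF-Y and ATF6. It was searched for on both strands, together with ERSE-II (ATTGGNCCACG) and the unfolded protein response element (UPRE, TGACGTGG), in RefSeq promoters of GRCm38.p6 that run from 250 bases before to 50 after the annotated start. A promoter was found for 27 of the 32 genes, and *Derl1*, *Hspa13*, *Manf*, *Hyou1* and *Atf6* had none in the table. ERSE was present in 9 of the 27 (33.3%) and in 37 of the 27025 genes with a promoter (0.137%). ERSE-II was present in *Dnajb11* and *Herpud1* (7.41%, against 0.0444% of all genes). No exact match to UPRE was found in the 27, and 0.714% of all genes had one. The matches are shown on the strand of the motif, with the fixed bases in capitals, because the genes that hold them did not all move the same way in the cold:
Calr, ERSE: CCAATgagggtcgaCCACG
Canx, ERSE: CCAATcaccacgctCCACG
Creld2, ERSE: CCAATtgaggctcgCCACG
Derl3, ERSE: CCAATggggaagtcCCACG
Dnajb11, ERSE-II: ATTGGcCCACG
Dnajc3, ERSE: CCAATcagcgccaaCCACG
Herpud1, ERSE-II: ATTGGgCCACG
Hsp90b1, ERSE, copy 1: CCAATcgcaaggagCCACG
Hsp90b1, ERSE, copy 2: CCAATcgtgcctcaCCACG
Hspa5, ERSE: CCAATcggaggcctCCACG
Pdia6, ERSE: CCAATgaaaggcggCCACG
Syvn1, ERSE: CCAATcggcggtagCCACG

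The bases before the start of *Hspa5*, *Hsp90b1* and *Pdia6* are shown in full, since the first 2 genes rose in the cold and the third fell while all 3 hold ERSE. The start is that of the RefSeq promoter. GENCODE, used for the gene spans given below, starts all 3 genes inside the stretches shown, at 34771970, 86705509 and 17266545. The sequence of *Hspa5* lies on the plus strand at chr2:34771840-34772089 and its ERSE begins 65 bases before the start. That of *Hsp90b1* lies on the minus strand at chr10:86705445-86705694 and holds ERSE in both orientations, with the first bases of the matches 212 and 107 bases before the start. That of *Pdia6* lies on the plus strand at chr12:17266339-17266588, with ERSE 98 bases before the start. The fixed bases of each match are in capitals, and CGTGG and ATTGG mark a match on the opposite strand:
Hspa5: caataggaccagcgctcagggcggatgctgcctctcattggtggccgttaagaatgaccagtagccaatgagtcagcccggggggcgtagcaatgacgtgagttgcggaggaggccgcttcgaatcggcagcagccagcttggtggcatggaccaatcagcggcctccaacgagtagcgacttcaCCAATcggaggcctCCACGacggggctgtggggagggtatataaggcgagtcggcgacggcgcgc
Hsp90b1: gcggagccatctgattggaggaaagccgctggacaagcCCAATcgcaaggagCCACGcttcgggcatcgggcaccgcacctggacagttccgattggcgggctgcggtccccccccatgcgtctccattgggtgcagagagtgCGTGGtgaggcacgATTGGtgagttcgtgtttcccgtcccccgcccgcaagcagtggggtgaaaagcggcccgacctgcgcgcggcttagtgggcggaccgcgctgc
Pdia6: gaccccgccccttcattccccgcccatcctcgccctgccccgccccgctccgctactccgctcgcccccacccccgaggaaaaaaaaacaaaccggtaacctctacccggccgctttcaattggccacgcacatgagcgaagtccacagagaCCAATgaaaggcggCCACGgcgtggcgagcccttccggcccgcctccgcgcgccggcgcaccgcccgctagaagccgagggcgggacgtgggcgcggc

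The libraries held 12705969 to 25732258 counts. *Afdn* itself had 151 to 214 CPM (read counts scaled by library size and TMM factor) in control mice and 154 to 231 CPM in mice labelled FAKO at 30 °C, a log2 fold change of -0.01 ± 0.08 (SE), with an adjusted p in edgeR's quasi-likelihood test of 0.992. At 5 °C it had 67.9 to 79.2 CPM and 53.3 to 65.3 CPM, a log2 fold change of -0.33 ± 0.088 (SE) with an edgeR adjusted p of 0.116. The gene counts therefore did not separate the genotypes at 30 °C, and they cannot show the loss of single exons, so group names follow the labels. Mitochondrial genes took 14.3 to 40.5% of the counts. In 1 control mouse at 30 °C (replicate 7) they took 14.3%, against 33.9 to 40.5% in the other 6. TMM factors were 0.769 and 0.759 in replicates 24 and 25 labelled FAKO at 5 °C, against 0.932 to 1.01 in the other 5. At 30 °C replicates 8, 9, 12, 13 and 14 labelled FAKO had 26.2 to 29.7% mitochondrial counts and TMM factors of 1.14 to 1.24. Replicates 10 and 11 of that group had 38.5 and 37.2%, with factors of 0.995 and 1.04. Factors of control mice at 30 °C were 0.934 to 1.29, and all but replicate 7 lay below 1.14. Replicate 28 labelled FAKO at 5 °C had 19.2% mitochondrial counts. Replicates 8, 9, 12, 13, 14 and 28 were kept when 3 libraries were left out together below. *Ucp1*, which defines brown adipocytes, averaged 997 CPM in control mice at 30 °C and 15042 CPM at 5 °C, with library size alone. On that scale *Adipoq*, another marker of these cells, averaged 994 CPM and 527 CPM. Of the 7 tested markers of brown adipocytes, 4 rose and 1 fell in the cold in control mice (edgeR adjusted p below 0.05). In mice labelled FAKO 5 rose and 1 fell. Markers of skeletal muscle, which adjoins this depot, summed to between 1.20 and 7125 CPM in single libraries, and 5 nuclear-retained RNAs summed to 8964 to 10586 CPM in control mice at 30 °C and 14850 to 16281 CPM at 5 °C. In mice labelled FAKO these RNAs summed to 10437 to 11791 CPM at 30 °C and 10349 to 13586 CPM at 5 °C. In the cold 3 of the 5 RNAs rose and 1 fell in control mice, and 2 rose and 2 fell in mice labelled FAKO (edgeR adjusted p below 0.05). The part of these differences in the results below was not tested. In whole tissue, fewer cells of a type and less RNA per cell cannot be told apart.

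Cold raised most of the 32 genes. In control mice 18 rose and 6 fell at an adjusted p below 0.05 in edgeR's quasi-likelihood test (56.25% and 18.75%), against 31.6% and 33.4% of all tested genes. In mice labelled FAKO 20 rose and 7 fell (62.5% and 21.875%), against 33.7% and 34.9% of all tested genes. The median log2 fold change of the 32 genes was 0.45 in control mice and 0.44 in mice labelled FAKO, where that of all tested genes was -0.01 and -0.03. Relative to the median of all tested genes, the members' median was 0.47 in both genotypes with TMM, and 0.47 and 0.48 with library size alone, which moved the median of all tested genes to -0.14 and -0.34. Under that scaling 12 of the 32 rose and 10 fell in mice labelled FAKO, where 3223 of all tested genes were higher and 8384 lower, beside 5825 and 6035 with TMM. The 8 that no longer passed as higher were *Hspa13*, *Dnajc3*, *Sdf2l1*, *Creld2*, *Ern1*, *Derl1*, *Edem3* and *Syvn1*, and with upper-quartile factors *Hspa13*, *Dnajc3*, *Creld2* and *Syvn1* did not pass in mice labelled FAKO. Without the 3 libraries that stand apart (control replicate 7 and replicates 24 and 25 labelled FAKO), 19 rose and 6 fell in control mice and 21 rose and 6 fell in mice labelled FAKO. CPM of the 5 °C and 30 °C groups did not overlap for 22 of the 32 genes in control mice (46.4% of all tested genes) and for 19 in mice labelled FAKO (40.4%). The same 18 genes rose in both genotypes and the same 5 fell in both. How many of all tested genes were called the same way in both genotypes was not counted. *Xbp1* passed the test in control mice alone, *Dnajc3*, *Derl1*, *Herpud1* and *Derl3* in mice labelled FAKO alone, and *P4hb*, *Eif2ak3*, *Derl2* and *Sec61b* in neither. The 2 cold responses share no mice.

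**Figure D1:**
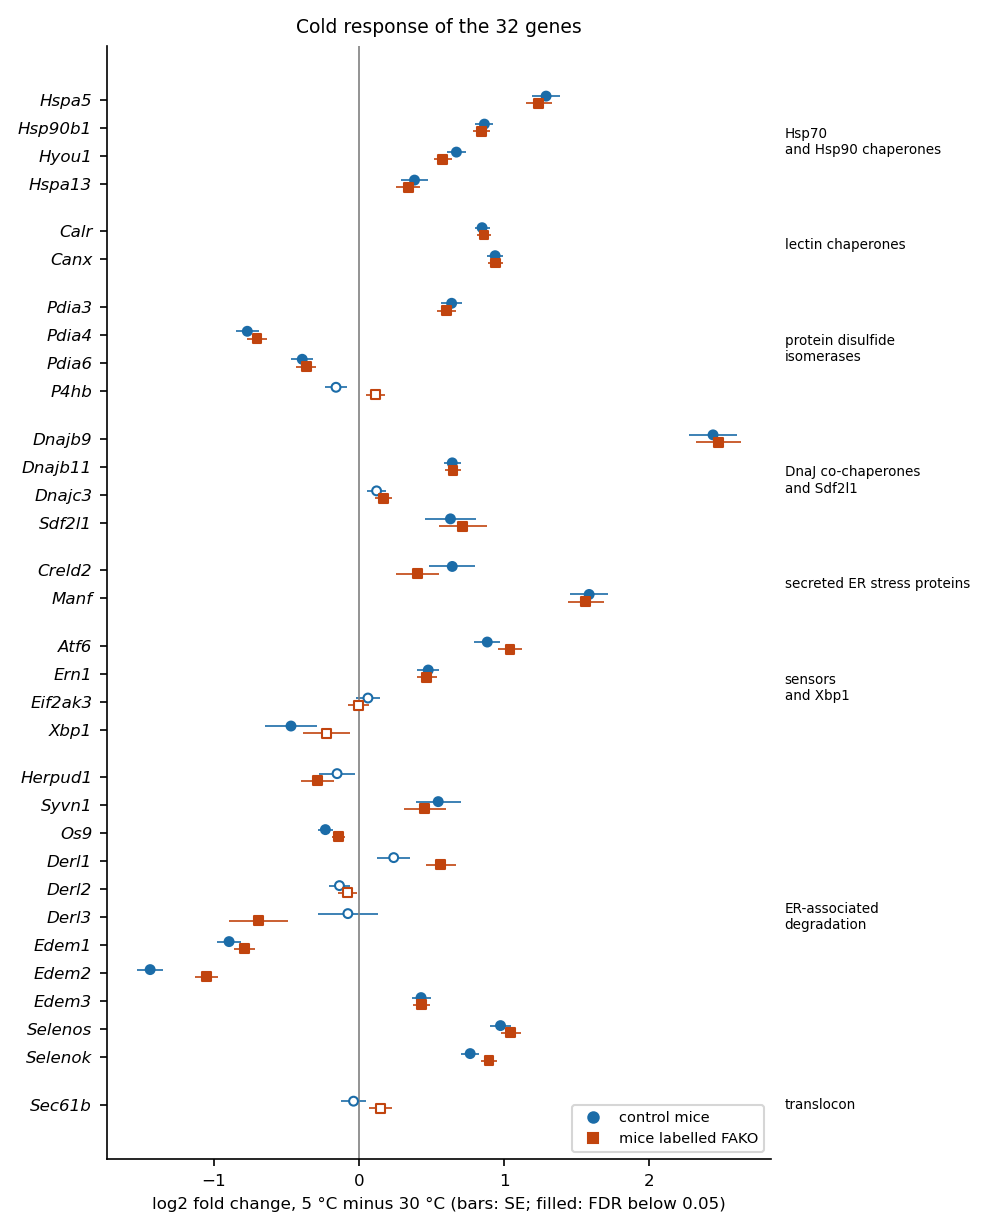
Cold response of the 32 genes by role. Each point is the log2 fold change at 5 °C relative to 30 °C in control mice (circles, 5 against 7 mice) or mice labelled FAKO (squares, 7 against 7), bars are standard errors, and filled points passed an adjusted p of 0.05 (edgeR). Points run from -1.44 for *Edem2* in control mice to 2.48 for *Dnajb9* in mice labelled FAKO, and *Pdia4*, *Pdia6*, *Edem1*, *Edem2* and *Os9* lie filled to the left of 0 in both genotypes.

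All 4 chaperones of the Hsp70 and Hsp90 families rose with TMM scaling, *Hspa13* in mice labelled FAKO not with library size alone or upper-quartile factors. *Hspa5* (chr2:34771970-34777547, GRCm38) encodes BiP, the Hsp70 chaperone of the ER lumen that also holds the 3 sensors inactive. At 30 °C, control mice had 248 to 325 (median 287) CPM. In the cold the 5 control mice had 595, 621, 672, 741 and 889 CPM (replicates 16, 17, 18, 19 and 21, in the order used for every gene here). Mice labelled FAKO had 223 to 303 (median 264) CPM at 30 °C and 546 to 706 (median 604) CPM at 5 °C. Every cold-exposed mouse lay above every mouse at 30 °C, and replicate 21 was the highest. The fold change was 2.45 in control mice (log2 1.29 ± 0.094 SE, edgeR adjusted p = 4.32e-12) and 2.36 in mice labelled FAKO (log2 1.24 ± 0.088 SE, edgeR adjusted p = 1.91e-12).

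*Hsp90b1* encodes GRP94, the Hsp90 chaperone of the ER lumen, which folds integrins and Toll-like receptors among others. Control mice had 177 to 227 (median 203) CPM at 30 °C and 356, 374, 357, 372 and 404 CPM at 5 °C. Mice labelled FAKO had 171 to 202 (median 191) CPM at 30 °C and 298 to 369 (median 343) CPM at 5 °C. The temperatures did not overlap in either genotype, and the fold changes were 1.82 and 1.80. *Hyou1*, a large Hsp70 relative that acts as a nucleotide exchange factor for BiP, rose 1.59-fold in control mice, with 93.6 to 116 CPM at 30 °C and 160.5 to 171 CPM at 5 °C, and 1.49-fold in mice labelled FAKO. *Hspa13*, a microsomal Hsp70 without a peptide-binding domain, had the smallest rise of the 4, 1.30-fold and 1.27-fold, with 19.3 to 30.5 CPM in control mice at 30 °C and 29.7 to 35.2 CPM at 5 °C, which overlap. In mice labelled FAKO its log2 fold change was 0.18 with upper-quartile factors (edgeR adjusted p = 0.0538) and 0.04 with library size alone (edgeR adjusted p = 0.756).

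The lectin chaperones *Calr* and *Canx*, which retain glycoproteins until they are folded, rose with small spread. *Canx* had 224 to 280.1 (median 259) CPM in control mice at 30 °C and 502, 511, 487, 495 and 487 CPM at 5 °C. In mice labelled FAKO its range was 230.0 to 263 CPM at 30 °C and 419 to 497 CPM at 5 °C. The log2 fold change of *Canx* was 0.94 ± 0.055 (SE) in control mice (edgeR adjusted p = 5.11e-14) and 0.94 ± 0.051 (SE) in mice labelled FAKO (edgeR adjusted p = 8.87e-15), and its SD of log2 CPM among the 5 cold-exposed control mice, 0.030, was the lowest of the 32 genes. *Calr* rose as well, with 165 to 196 CPM at 30 °C and 310.3, 339, 303, 319.8 and 339 CPM at 5 °C in control mice, and 156 to 171 CPM and 274 to 315 CPM in mice labelled FAKO, a rise of 1.80-fold and 1.82-fold. ERSE was present in the promoters of both genes.

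**Figure D2:**
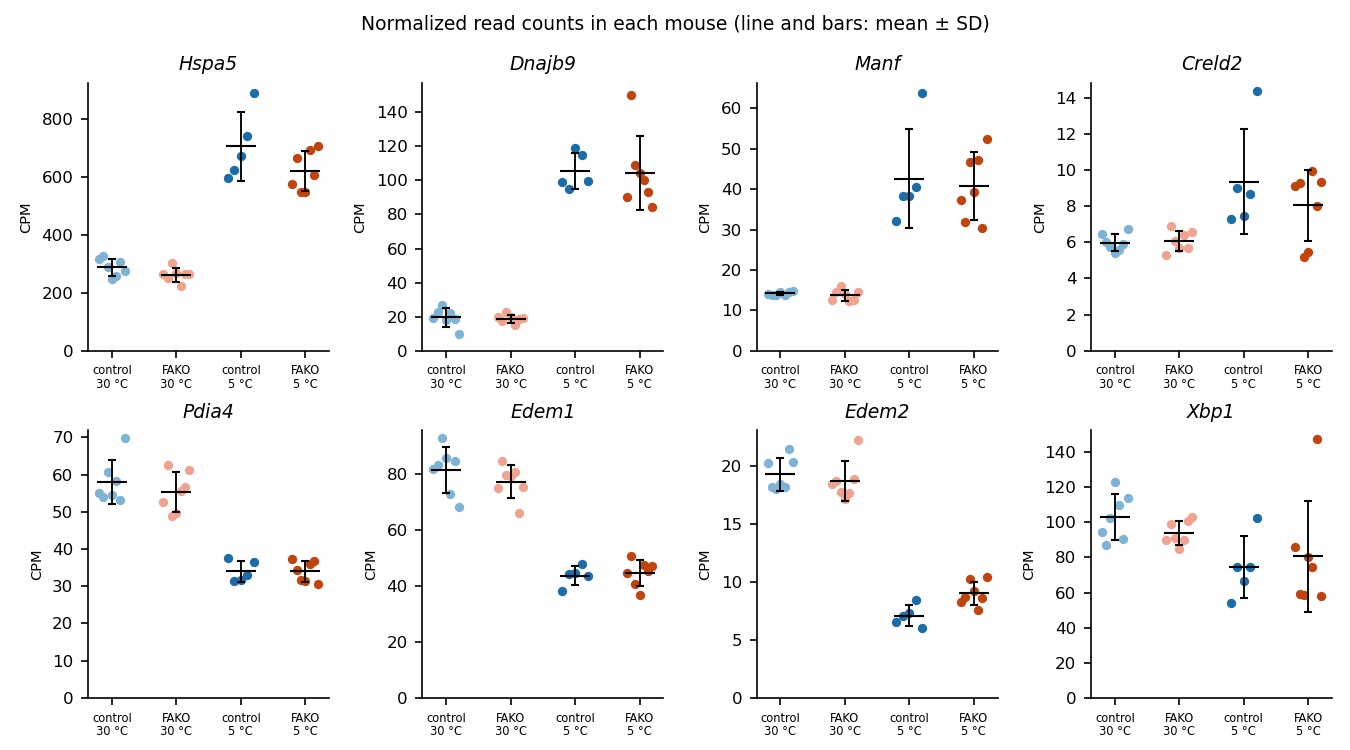
Normalized read counts (CPM, linear axes from 0) of *Hspa5*, *Dnajb9*, *Manf*, *Creld2*, *Pdia4*, *Edem1*, *Edem2* and *Xbp1* in each of the 26 mice. Points are mice, lines and bars the group mean ± SD; *Hspa5*, *Dnajb9* and *Manf* do not overlap between temperatures, *Pdia4*, *Edem1* and *Edem2* lie lower at 5 °C without overlap, and 1 cold-exposed mouse labelled FAKO stands at 148 CPM for *Xbp1* above the other 6.

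The protein disulfide isomerases, which form and rearrange disulfide bonds in the ER, moved in both directions. *Pdia3*, which works with calnexin and calreticulin on glycoproteins, rose 1.56-fold in control mice, with 71.2 to 81.8 CPM at 30 °C and 116 to 128 CPM at 5 °C, and 1.52-fold in mice labelled FAKO. *Pdia4*, which encodes ERp72, fell. Control mice had 53.3 to 70.0 (median 55.1) CPM of *Pdia4* at 30 °C and 37.5, 31.4, 31.8, 32.9 and 36.6 CPM at 5 °C. In mice labelled FAKO the values were 49.0 to 62.6 (median 55.6) CPM and 30.7 to 37.2 (median 34.4) CPM. The groups did not overlap, and the log2 fold change was -0.77 ± 0.078 (SE) in control mice (edgeR adjusted p = 2.43e-09) and -0.70 ± 0.071 (SE) in mice labelled FAKO (edgeR adjusted p = 1.56e-09).

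*Pdia6*, which encodes P5, an isomerase that also attenuates IRE1, fell, with 85.1 to 102 CPM at 30 °C and 66.0, 65.1, 68.2, 79.4 and 80.3 CPM at 5 °C in control mice. Its log2 fold change was -0.39 ± 0.076 (SE) in control mice and -0.36 ± 0.069 (SE) in mice labelled FAKO. It was 1 of 6 genes with a promoter in the table that fell in control mice, and the only one of the 6 with ERSE. ERSE was held by 6 of the 14 with a promoter that rose and by 2 of the 7 that were not called. A link between ERSE and the direction of change was not tested. *P4hb*, the founding isomerase of the family and a subunit of prolyl 4-hydroxylase, was not called in either genotype. Its log2 fold change was -0.16 ± 0.075 (SE) in control mice (edgeR adjusted p = 0.0659) and 0.12 ± 0.068 (SE) in mice labelled FAKO (edgeR adjusted p = 0.135). In control mice it passed as lower with upper-quartile factors (-0.26, edgeR adjusted p = 0.0033). In control mice at 30 °C, replicate 7, the library with few mitochondrial counts, had 149 CPM of *P4hb* and the other 6 had 103 to 111 CPM.

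*Dnajb9* (chr12:44205559-44210326) had the largest change of the 32 genes. It encodes ERdj4, a J-domain co-chaperone of BiP that represses IRE1 and is a known target of spliced XBP1. Control mice had 9.50 to 26.6 (median 19.1) CPM at 30 °C and 99.3, 94.8, 119, 115 and 99.8 CPM at 5 °C. Mice labelled FAKO had 14.8 to 22.5 (median 19.1) CPM at 30 °C and 84.2 to 150.2 (median 99.96) CPM at 5 °C. The lowest cold-exposed mouse thus lay far above the highest mouse at 30 °C. The fold change was 5.43 in control mice (log2 2.44 ± 0.16 SE, edgeR adjusted p = 6.99e-13) and 5.58 in mice labelled FAKO (log2 2.48 ± 0.15 SE, edgeR adjusted p = 1.50e-13). In CPM per kilobase of exon, *Dnajb9* was number 21 of the 32 genes in control mice at 30 °C, with 7.64 ± 2.09 (SD, n = 7), and number 5 at 5 °C, with 41.4 ± 4.22 (SD, n = 5).

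The other J-domain genes changed less. *Dnajb11*, the ERdj3 co-chaperone that binds unfolded substrates, rose 1.56-fold and 1.57-fold, with 22.1 to 24.2 CPM in control mice at 30 °C and 33.6, 34.8, 33.4, 37.3 and 44.9 CPM at 5 °C. *Dnajc3*, which encodes the PERK inhibitor p58IPK, had a log2 fold change of 0.12 ± 0.063 (SE) in control mice, which did not pass (edgeR adjusted p = 0.0938), and of 0.17 ± 0.058 (SE) in mice labelled FAKO, which did (edgeR adjusted p = 0.0105) but was -0.15 with library size alone. *Sdf2l1*, which works with ERdj3 against aggregation, was a low gene with 22 to 68 counts a mouse. Its CPM were 1.69 to 2.66 (median 1.97) in control mice at 30 °C and 2.67, 3.07, 2.83, 3.48 and 3.92 at 5 °C, with fold changes of 1.55 and 1.64 in the 2 genotypes.

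Both genes for secreted ER stress proteins rose. *Manf* (chr9:106838312-106891979) encodes a neurotrophic factor that BiP retains in the ER. Control mice had 13.8 to 14.7 (median 13.9) CPM at 30 °C, the smallest spread of the 32 genes in that group, and 32.1, 38.3, 38.3, 40.6 and 63.7 CPM at 5 °C. Mice labelled FAKO had 12.3 to 15.9 (median 14.2) CPM at 30 °C and 30.4 to 52.5 (median 39.3) CPM at 5 °C. The temperatures did not overlap, the highest value at 5 °C was that of replicate 21, and the log2 fold change was 1.59 ± 0.13 (SE) in control mice (edgeR adjusted p = 6.21e-11) and 1.56 ± 0.13 (SE) in mice labelled FAKO (edgeR adjusted p = 1.93e-11). The annotated span of *Manf* overlaps *Rbm15b* on its own strand and *Dcaf1* on the other, and the strand setting of the counting was not given in the sources used here.

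*Creld2*, which encodes a secreted protein with disulfide isomerase activity, had 5.38 to 6.74 (median 5.90) CPM in control mice at 30 °C and 7.30, 8.99, 7.42, 8.68 and 14.3 CPM at 5 °C. In mice labelled FAKO it had 5.28 to 6.90 CPM at 30 °C and 5.17 to 9.94 CPM at 5 °C, where the groups overlap. It rose 1.56-fold in control mice (edgeR adjusted p = 0.000843) and 1.32-fold in mice labelled FAKO (edgeR adjusted p = 0.0163). In the latter the log2 fold change was 0.25 with upper-quartile factors (edgeR adjusted p = 0.135) and 0.11 with library size alone (edgeR adjusted p = 0.617). The highest cold-exposed control mouse was again replicate 21, which was the highest of the 5 for 16 of the 32 genes, among them *Hspa5*, *Hsp90b1*, *Calr*, *Manf*, *Creld2*, *Atf6*, *Xbp1* and *Herpud1*. Without it, the counts of members that rose and fell in control mice were 18 and 7.

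Of the 3 sensors, 2 rose. *Atf6* had 63.4 to 89.8 (median 74.3) CPM in control mice at 30 °C and 128, 137, 155, 124 and 158 CPM at 5 °C. In mice labelled FAKO it had 61.7 to 71.6 CPM at 30 °C and 114 to 183 CPM at 5 °C. Its fold change was 1.85 in control mice (edgeR adjusted p = 2.61e-09) and 2.06 in mice labelled FAKO (edgeR adjusted p = 2.50e-11). *Ern1* rose 1.39-fold and 1.38-fold, with 13.9 to 18.8 CPM at 30 °C and 21.2 to 24.4 CPM at 5 °C in control mice. *Eif2ak3* had a log2 fold change of 0.06 ± 0.081 (SE) in control mice (edgeR adjusted p = 0.512) and of -0.0027 ± 0.074 (SE) in mice labelled FAKO (edgeR adjusted p = 0.976, or -0.32 and 0.00916 with library size alone), with 17.5 to 23.4 CPM at 30 °C and 20.3 to 26.4 CPM at 5 °C in control mice.

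*Xbp1* was lower in the cold in control mice. Those mice had 86.9 to 123 (median 103) CPM at 30 °C and 53.8, 74.8, 66.7, 74.8 and 102 CPM at 5 °C, so that replicate 21 lay within the range at 30 °C. Mice labelled FAKO had 84.9 to 103 (median 91.0) CPM at 30 °C and 58.0 to 148 (median 74.6) CPM at 5 °C, with replicate 27 at 148 CPM and the other 6 at 58.0 to 86.0 CPM. The log2 fold change was -0.47 ± 0.18 (SE) in control mice (edgeR adjusted p = 0.0225) and -0.22 ± 0.16 (SE) in mice labelled FAKO (edgeR adjusted p = 0.218). These calls depended on single mice. Without control replicate 16 the change in control mice was -0.37 (edgeR adjusted p = 0.081) and without replicate 18 it was -0.43 (edgeR adjusted p = 0.0547), while without replicate 27 the change in mice labelled FAKO was -0.44 (edgeR adjusted p = 0.00208). With upper-quartile factors and with library size alone it was -0.39 and -0.54 (edgeR adjusted p = 0.0294 and 0.0106). Gene counts do not separate spliced from unspliced *Xbp1*.

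The 11 members of ERAD moved in both directions. In control mice 4 rose and 3 fell (36.4% and 27.3%, near the 31.6% and 33.4% of all tested genes), and in mice labelled FAKO 5 rose and 5 fell (45.5% each, against 33.7% and 34.9%). The 3 EDEM genes encode proteins that trim mannose from misfolded glycoproteins and so mark them for removal, and they diverged: *Edem1* and *Edem2* fell and *Edem3* rose in both genotypes. *Edem2* (chr2:155701677-155729475) had 18.0 to 21.4 (median 18.4) CPM in control mice at 30 °C and 6.52, 7.11, 7.34, 8.47 and 6.05 CPM at 5 °C. In mice labelled FAKO it had 17.2 to 22.3 (median 18.5) CPM at 30 °C and 7.62 to 10.4 (median 8.71) CPM at 5 °C. No cold-exposed mouse reached the level of any mouse at 30 °C, and the log2 fold change was -1.44 ± 0.09 (SE) in control mice (edgeR adjusted p = 2.24e-13) and -1.05 ± 0.08 (SE) in mice labelled FAKO (edgeR adjusted p = 6.15e-12).

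*Edem1*, a known target of spliced XBP1 like *Dnajb9*, had 68.2 to 92.8 (median 83.2) CPM in control mice at 30 °C and 38.3, 44.2, 44.8, 47.8 and 43.4 CPM at 5 °C. In mice labelled FAKO it had 66.1 to 84.6 CPM at 30 °C and 36.8 to 50.8 CPM at 5 °C. It fell without overlap between temperatures in both genotypes, to 0.538 and 0.578 of the level at 30 °C. *Edem3* rose 1.35-fold in both genotypes, with 54.1 to 64.8 CPM in control mice at 30 °C and 75.1, 78.7, 78.0, 80.2 and 83.4 CPM at 5 °C.

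Among the subunits of the membrane complex that carries proteins out of the ER, *Syvn1*, which encodes the ubiquitin ligase HRD1, rose 1.46-fold and 1.37-fold. The call in mice labelled FAKO was lost with upper-quartile factors (log2 fold change 0.30, edgeR adjusted p = 0.0686) and with library size alone (0.15, edgeR adjusted p = 0.427). In control mice it had 11.4 to 15.0 CPM at 30 °C and 15.7, 16.3, 16.2, 20.1 and 30.1 CPM at 5 °C. *Selenos* and *Selenok*, selenoproteins that bind derlins and p97, rose without overlap. *Selenos* had 15.5 to 19.6 (median 17.3) CPM in control mice at 30 °C and 33.3, 34.3, 32.4, 37.0 and 34.2 CPM at 5 °C, a rise of 1.97-fold, and rose 2.07-fold in mice labelled FAKO. *Selenok* rose 1.70-fold in control mice, with 29.2 to 39.4 CPM at 30 °C and 56.0 to 61.0 CPM at 5 °C, and 1.86-fold in mice labelled FAKO. *Os9*, a lectin that delivers substrates to HRD1, fell to 0.852 and 0.908 of its level at 30 °C, with 55.5 to 67.3 CPM at 30 °C and 49.3 to 53.0 CPM at 5 °C in control mice.

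*Herpud1*, which organizes the HRD1 complex, had a log2 fold change of -0.15 ± 0.13 (SE) in control mice (edgeR adjusted p = 0.302) and -0.29 ± 0.11 (SE) in mice labelled FAKO (edgeR adjusted p = 0.0292). The 5 control mice at 5 °C had 58.0, 57.0, 80.4, 75.3 and 113 CPM, so that replicate 21 lay above the others and above the range at 30 °C, 68.3 to 99.7 CPM. Without replicate 21 the change in control mice was -0.33 (edgeR adjusted p = 0.00960), and the call in mice labelled FAKO was lost without replicate 25, 27 or 28 (edgeR adjusted p = 0.0507 to 0.0639) and without the 3 libraries that stand apart (edgeR adjusted p = 0.0743).

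The derlins take part in the channel of the complex. *Derl1* had 75.6 to 127 (median 84.4) CPM in control mice at 30 °C and 96.4, 105, 119, 119 and 116 CPM at 5 °C, a log2 fold change of 0.24 ± 0.11 (SE) that did not pass (edgeR adjusted p = 0.0644), and that was 0.30 without replicate 7 at 30 °C (edgeR adjusted p = 0.0103). In mice labelled FAKO it rose 1.48-fold, with 69.8 to 97.7 CPM at 30 °C and 102 to 134 CPM at 5 °C. *Derl2* did not pass in either genotype, with log2 fold changes of -0.13 ± 0.073 (SE) and -0.08 ± 0.066 (SE). It passed as lower with upper-quartile factors in both (-0.24 in each, edgeR adjusted p = 0.00979 and 0.00532), and in mice labelled FAKO with library size alone (-0.39, edgeR adjusted p = 0.00353). In control mice it also passed with a minimum of 10 counts in every mouse and in a fit of only the groups compared (-0.18 in each, edgeR adjusted p = 0.0345 and 0.0346). *Derl3* was the lowest of the 32 genes, with 5 to 38 counts a mouse. It had 1.10 to 1.75 (median 1.44) CPM in control mice at 30 °C and 0.949, 1.18, 1.42, 1.61 and 1.90 CPM at 5 °C, and 0.878 to 1.57 (median 1.23) CPM and 0.374 to 1.31 (median 0.777) CPM in mice labelled FAKO. The log2 fold change was -0.08 ± 0.21 (SE) in control mice (edgeR adjusted p = 0.763) and -0.69 ± 0.2 (SE) in mice labelled FAKO (edgeR adjusted p = 0.00409).

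*Sec61b*, a subunit of the channel through which new proteins enter the ER, had 11.9 to 14.5 CPM in control mice at 30 °C and 14.1, 12.3, 11.1, 12.7 and 13.8 CPM at 5 °C. Its log2 fold change was -0.04 ± 0.085 (SE) in control mice (edgeR adjusted p = 0.719) and 0.15 ± 0.078 (SE) in mice labelled FAKO (edgeR adjusted p = 0.0923). The latter was 0.19 without replicate 24 at 5 °C (edgeR adjusted p = 0.0274) and 0.23 without the 3 libraries that stand apart (edgeR adjusted p = 0.0068).

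On the scale of CPM per kilobase of exon, which allows genes to be compared, the most abundant of the 32 in control mice at 30 °C were *Hspa5* with 68.0 ± 7.04, *Calr* with 62.1 ± 3.99, *Canx* with 55.2 ± 3.91 and *Hsp90b1* with 50.7 ± 3.78 (SD, n = 7). The ranges given by 1 SD overlapped between *Hspa5* and *Calr*, between *Calr* and *Canx*, and between *Canx* and *Hsp90b1*. These 4 were also the highest at 5 °C, with 166 ± 27.8, 112 ± 5.79, 106 ± 2.20 and 92.4 ± 4.78 (SD, n = 5). *Derl3* was the lowest at both temperatures, with 0.749 ± 0.117 (SD, n = 7) and 0.709 ± 0.185 (SD, n = 5). *Edem2* moved from number 23 of the 32 to number 31.

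**Figure D3:**
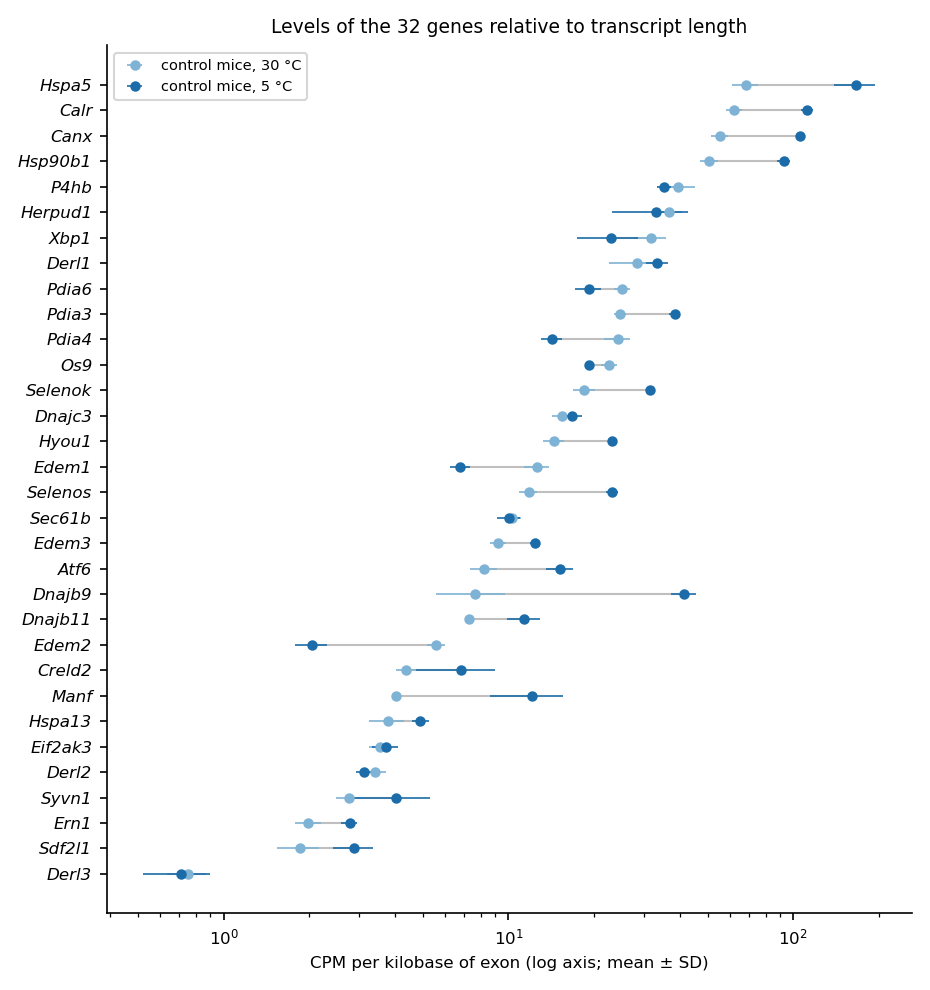
Levels of the 32 genes in control mice as CPM per kilobase of exon on a log axis, sorted by the level at 30 °C. Points are group means at 30 °C (pale, n = 7) and 5 °C (dark, n = 5), bars are the SD, and grey lines join both means of a gene; *Dnajb9* moves from 7.64 to 41.4 and *Edem2* from 5.57 to 2.05.

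Genotype was compared within each temperature to ask whether loss of Afadin alters these genes. At 30 °C none of the 32 genes differed at an adjusted p below 0.05 in edgeR's quasi-likelihood test, against 0.081% of all tested genes, and 4 had an unadjusted p below 0.05 (*Hsp90b1*, *Calr*, *Derl1* and *Selenok*), against 7.65% of all tested genes. DESeq2 called none, against 0.278% of all tested genes. Log2 fold changes ran from -0.28 for *Sdf2l1* to 0.02 for *Creld2*, and 31 of the 32 were negative, as were those of 9671 of the 17286 tested genes, with standard errors of 0.047 to 0.19. The mean log2 CPM over the 32 genes was 5.30 ± 0.021 (SD, n = 7) in control mice and 5.22 ± 0.032 (SD, n = 7) in mice labelled FAKO. The median log2 fold change was -0.07 with TMM, where that of all tested genes was -0.02, and 0.08 with library size alone, where that of all tested genes was 0.13, so that the direction turned with the scaling while the members stayed 0.05 below all genes. TMM factors at 30 °C were higher in most mice labelled FAKO than in most control mice, as given above. No gene had groups that did not overlap, against 0.249% of all tested genes.

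At 5 °C again none of the 32 passed in edgeR's quasi-likelihood test, against 0.139% of all tested genes, and 3 of the 32 had an unadjusted p below 0.05, against 13.4% of all tested genes. DESeq2 called 1, *Edem2* (adjusted p = 0.0431), against 1.14% of all tested genes. The members' median log2 fold change was -0.05, and that of all tested genes 0.02. In no gene did the groups fail to overlap, against 1.11% of all tested genes. *Hsp90b1* had 356, 374, 357, 372 and 404 CPM in control mice and 298 to 369 (median 343) CPM in mice labelled FAKO, a log2 fold change of -0.14 ± 0.063 (SE) (edgeR adjusted p = 0.318), beside -0.12 ± 0.058 (SE) at 30 °C. *Edem2* had 7.62 to 10.4 (median 8.71) CPM in mice labelled FAKO at 5 °C and 6.52, 7.11, 7.34, 8.47 and 6.05 CPM in control mice. Its log2 fold change was 0.34 ± 0.09 (SE) (edgeR adjusted p = 0.113). The 2 ranges overlap in part.

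*Derl3* was the other gene with a small unadjusted p at 5 °C. Its log2 fold change was -0.89 ± 0.22 (SE) (edgeR adjusted p = 0.0887), beside -0.28 ± 0.19 (SE) at 30 °C. Without replicate 25 labelled FAKO at 5 °C it was -1.08 (edgeR adjusted p = 0.0344), and without replicates 24 and 25 at 5 °C and control replicate 7 at 30 °C it was -0.97 (edgeR adjusted p = 0.0473). Derlin-3 is known from cells with heavy secretion, so markers of plasma cells and B cells are given beside it. Of 11 markers 8 were tested, and their summed CPM was 15.7 to 37.1 in control mice and 17.6 to 27.2 in mice labelled FAKO at 30 °C, and 5.66 to 8.84 and 6.21 to 47.4 at 5 °C. *Mzb1* and *Tnfrsf17*, which define plasma cells, reached at most 10 and 9 counts in a mouse. In the cold 5 of the 8 markers fell in control mice and 1 of the 8 in mice labelled FAKO, against 33.4% and 34.9% of all tested genes. At 5 °C none of the 8 was called between genotypes, and all had positive log2 fold changes in mice labelled FAKO, with a median of 1.66. Of the 8, 6 had an unadjusted p below 0.05 in edgeR's quasi-likelihood test, against 13.4% of all tested genes. The part of these cells in the values of *Derl3* was not tested.

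An interaction term asked whether the cold response differed between the genotypes. None of the 32 genes passed in edgeR's quasi-likelihood test or with DESeq2, against 1.16% and 2.82% of all tested genes. An unadjusted p below 0.05 was found for 4 of the 32, against 16.2% of all tested genes. *Edem2* had the lowest, with a difference of 0.39 ± 0.12 (SE) on the log2 scale (edgeR adjusted p = 0.103), its cold response being -1.44 in control mice and -1.05 in mice labelled FAKO. The others were *P4hb* with 0.27 ± 0.1 (SE), *Derl1* with 0.32 ± 0.15 (SE) and *Derl3* with -0.61 ± 0.29 (SE). The calls made in 1 genotype alone, those of *Xbp1*, *Dnajc3*, *Derl1*, *Herpud1* and *Derl3*, were thus not shown to differ between the genotypes. For *Hspa5* the difference was -0.05 ± 0.13 (SE), for *Dnajb9* 0.04 ± 0.22 (SE), for *Manf* -0.02 ± 0.18 (SE) and for *Canx* 0.0011 ± 0.075 (SE).

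**Figure D4:**
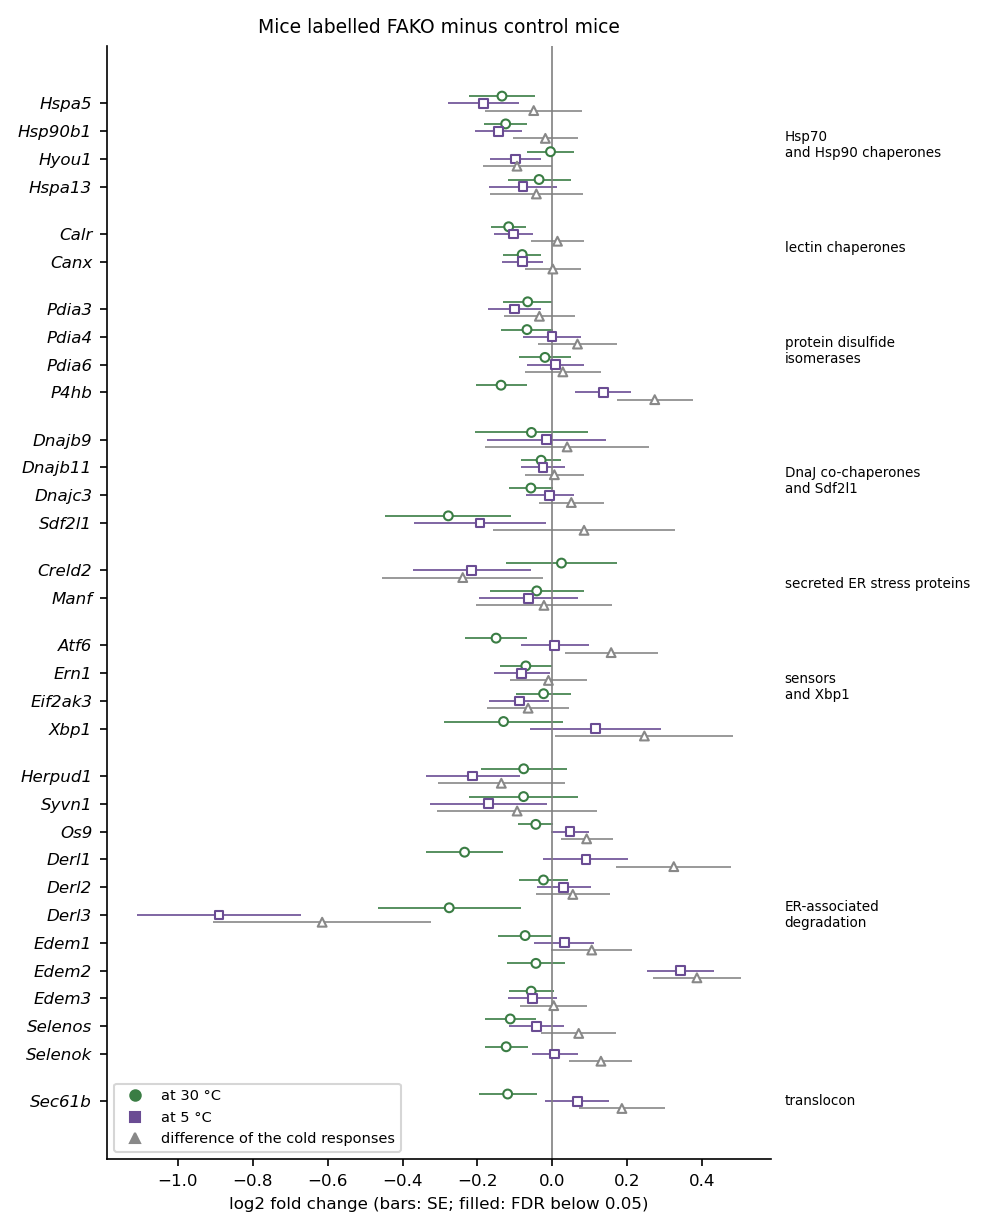
Mice labelled FAKO relative to control mice for the 32 genes. Points are log2 fold changes at 30 °C (circles, 7 against 7 mice) and 5 °C (squares, 7 against 5), triangles are the difference between the cold responses, and bars are standard errors; all points are open since none passed an adjusted p of 0.05, and *Derl3* lies at -0.89 and *Edem2* at 0.34 at 5 °C.

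Other genes of the same pathways were counted in the same fit, in which 31.6% of all tested genes rose and 33.4% fell in control mice, with a median of -0.01. Of 34 tested ER folding enzymes outside the 32, 10 rose and 14 fell in control mice (29.4% and 41.2%), with a median log2 fold change of -0.03. *Pdia5*, another disulfide isomerase, fell by 2.30 and *Tmx4*, a membrane-bound member of the family, rose by 1.92 on the log2 scale. Of 32 other ERAD genes, 18 rose and 8 fell (56.25% and 25%, median 0.31), with *Nploc4*, a cofactor of p97, at 1.31 and *Foxred2* at -1.48. *Foxred2* had 3.71 to 13.4 (median 4.37) CPM in control mice at 30 °C and 1.67 to 2.19 CPM at 5 °C. In mice labelled FAKO its log2 fold change was -0.82. Of 20 genes of glycosylation and quality control, 10 rose and 3 fell (50% and 15%, median 0.25), with *Lman2*, a cargo receptor of the secretory pathway, at 0.73 and *Tusc3*, a subunit of the oligosaccharyltransferase, at -0.76. Of 32 genes of translocation and signal peptide removal, 23 rose and 5 fell (71.9% and 15.6%, median 0.25), with *Emc3* at 0.92 and *Emc9* at -1.77. With library size alone, 13 of these genes rose in control mice. Of 24 other transducers and regulators, 12 rose and 5 fell (50% and 20.8%, median 0.25), among them *Ppp1r15b*, a phosphatase subunit that reverses the PERK signal, at 1.25 and *Eif2s1*, the initiation factor subunit that PERK phosphorylates, at 0.79.

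The lists for ATF4 and its targets and for the cytosol had the larger medians. The activity of PERK was not measured. Of 25 genes for ATF4 and its targets, 18 rose and 4 fell in each genotype (72% and 16%), with a median log2 fold change of 1.69 in control mice and 2.05 in mice labelled FAKO. *Mthfd2*, a mitochondrial folate enzyme, was at 3.95 and *Fgf21*, which encodes a hormone, at 5.18 ± 0.49 (SE) in control mice. *Fgf21* was near the floor in control mice at 30 °C, with 0 to 28 counts a mouse (0 to 1.28 CPM). At 5 °C its range was 11.5 to 19.8 CPM. Of 25 cytosolic heat shock chaperones, 20 rose and none fell in control mice (80%, median 1.07), and 19 rose and none fell in mice labelled FAKO (76%, median 1.15). *Hsp90aa1* was at 2.93 and *Hspa4l* at 2.52. These lists were chosen with earlier results of these data known, so their counts are set beside those of all tested genes without a test. In these 7 lists no gene passed in edgeR's quasi-likelihood test for genotype at either temperature or for the difference between the cold responses.

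**Figure D5:**
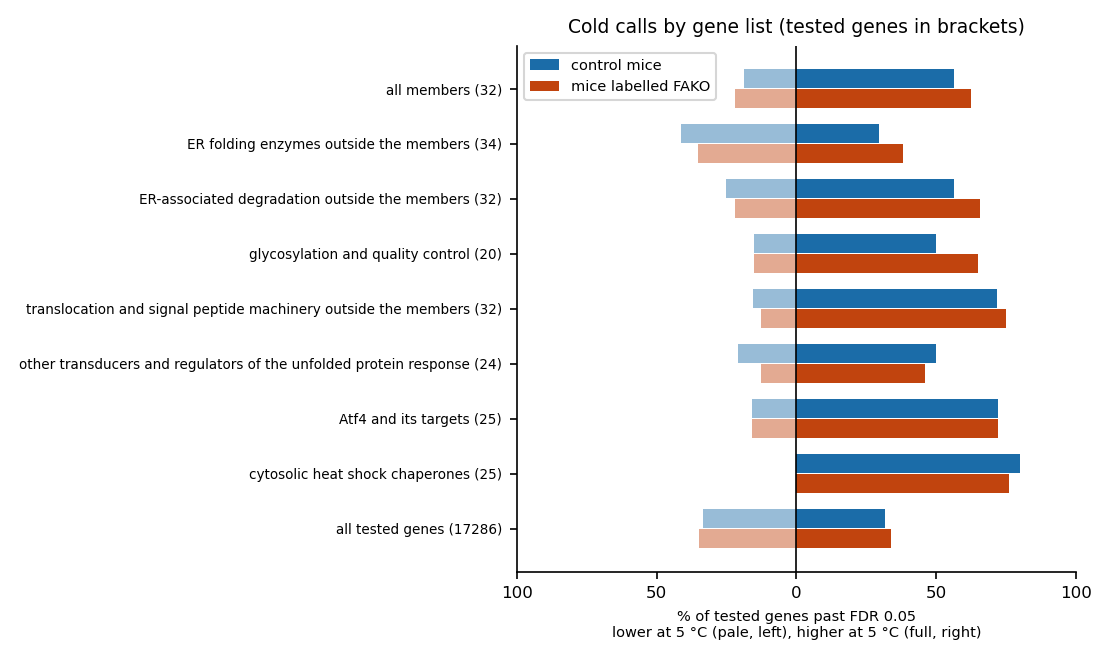
Share of tested genes that passed an adjusted p of 0.05 (edgeR) in the cold, by list, with the number of tested genes in brackets. Bars to the right (full colour) are genes higher at 5 °C and bars to the left (pale) genes lower at 5 °C, in control mice (blue) and mice labelled FAKO (orange); for the 32 members 56.25% and 62.5% lie to the right, against 31.6% and 33.7% of all tested genes.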

How the data were processed

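BAT of 26 mice was sequenced as 100-base single-end reads from rRNA-depleted, stranded total RNA. Per the labels and the study's methods, the authors used STAR 2.5.2b for alignment to mm10 and featureCounts 1.5.2 for counting, and the deposited values are raw counts per gene without normalization. The strand setting of the counting was not given in the sources used here, so reads of overlapping genes on opposite strands may not have been told apart. Samples were grouped by their labels. Of 50686 deposited IDs, 50462 were given a symbol through GENCODE M21, whose exon lengths also served for CPM per kilobase. The filter filterByExpr, applied by group, kept 17286 genes, and libraries were scaled by TMM. One model of the 4 groups was fitted in R 4.3.3 with the legacy quasi-likelihood mode of edgeR 4.0.16 (glmQLFit and glmQLFTest). P-values were adjusted by Benjamini-Hochberg over all tested genes, with a threshold of 0.05. Contrasts were cold in each genotype, genotype at each temperature, and the interaction. Promoters came from RefSeq. Summaries were made with Python 3.11.15.

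All 32 genes are named. From each of the 7 other lists, the text names the 2 tested genes with the largest cold change in control mice, out of those that passed the test and averaged 1 CPM or more. Members and lists were chosen with earlier results of these data known. The list genes *Pdia2*, *Erp27*, *Srp54a*, *Ern2* and *Creb3l3* and the markers *Mzb1*, *Tnfrsf17* and *Pou2af1* did not pass the filter. Libraries held 12705969 to 25732258 counts. In simulations on 17286 genes, 200 were changed by 1 on the log2 scale. Of the 200, edgeR called 152 in the cold comparison in control mice (10 false calls) and 149 in the genotype comparison at 5 °C (6 false calls). It called 115 in the difference between the cold responses (6 false calls). Smaller changes, and changes in most genes as in the real cold comparison, were not simulated. These counts therefore do not show how often genotype differences as small as those of the 32 genes would be found. The alternatives were DESeq2 1.42.0, the revised and the robust quasi-likelihood fits, 3 other scalings, 2 other filters, fits of only the groups compared, and leaving out each mouse in turn. Leaving out 3 libraries together was chosen after seeing the data. A planned search of protein ends was not run, as no protein sequences were used here.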

Additional observations from a re-analysis of the deposited data

Results flagged for a closer look

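In each group the highest and lowest mouse of every member was compared with the rest by Dixon's criterion, which flags about 1 in 20 groups by chance. Of 128 combinations of gene and group, 7 were flagged, all for a high value. At 30 °C, control replicate 7, the library with the lowest share of mitochondrial counts, had 149 CPM of *P4hb* (the other 6 had 103 to 111 CPM) and 67.3 CPM of *Os9* (55.5 to 60.3 CPM). Replicate 14 labelled FAKO had 22.3 CPM of *Edem2* at 30 °C (17.2 to 18.9 CPM). At 5 °C, control replicate 21 had 14.3 CPM of *Creld2* (7.30 to 8.99 CPM) and 63.7 CPM of *Manf* (32.1 to 40.6 CPM). Among mice labelled FAKO at 5 °C, replicate 23 had 150.2 CPM of *Dnajb9* (84.2 to 109 CPM) and replicate 27 had 148 CPM of *Xbp1* (58.0 to 86.0 CPM). In none of the 32 genes did the cold responses of the genotypes differ in edgeR's quasi-likelihood test of the difference.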

How the results depend on the processing

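Of the values of single genes, 8173 kept their side of the threshold or had no adjusted p, and 31 passed it only under the alternative. Of those that passed in the main fit, 18 lost the call with the same sign and 1 turned. Values that passed in neither fit were not compared for direction, and some changed sign. The cold response of *P4hb* in mice labelled FAKO, never called, ran from -0.21 to 0.13. The one that turned was *Dnajc3* in mice labelled FAKO, which had a cold response of -0.15 on the log2 scale with library size alone (edgeR adjusted p = 0.157). With library size alone, 12 members rose in the cold in mice labelled FAKO, in place of 20, as the median of all tested genes moved from -0.03 to -0.34. In those mice the same scaling left 7 rising genes of translocation and signal peptide removal, in place of 24. Rising genes numbered 11 in place of 21 for other ERAD genes and 4 in place of 13 for glycosylation and quality control. Of ER folding enzymes outside the 32, 5 rose and 19 fell, in place of 13 and 12. Of other transducers and regulators, 7 rose and 8 fell, in place of 11 and 3. At 5 °C DESeq2 called 1 member higher in mice labelled FAKO (*Edem2*), and without the 3 libraries that stand apart 1 was called lower (*Derl3*). Over the fits that each left out 1 mouse, 18 to 20 members rose and 5 to 7 fell in control mice, and 20 to 21 rose and 6 to 7 fell in mice labelled FAKO. Members lower in mice labelled FAKO at 5 °C numbered 0 to 1, the 1 being *Derl3* without replicate 25, and none was higher; none was called at 30 °C or in the difference between the cold responses. In control mice *P4hb*, *Dnajc3* and *Derl1* were close to the threshold and each passed when some single mice were left out. The annotated spans of *Manf*, *Syvn1*, *Derl2*, *Pdia3* and *Pdia6* overlap other protein-coding genes. Counts of *Derl3* (5 to 38 a mouse) and *Sdf2l1* (22 to 68) limit their precision.

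No paired analysis was made. Controls were littermates, but the sample labels used here give no litters or pairs, and every mouse has its own replicate number.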
